A study of Homo sapiens with 12 samples.

Results

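The glutathione, NRF2 and peroxidase genes described here are 10 rows of a gene table of 55771 rows, taken by symbol: NFE2L2, GCLC, GCLM, HMOX1, NQO1, TXNRD1, SRXN1, GPX1, GPX3 and GPX4. They were followed in KELLY, an established neuroblastoma cell line of human origin with amplified MYCN, through 12 RNA-seq libraries. The groups were BPS2, BPS1 and a control oligonucleotide, with 4 libraries each. All 3 groups received a morpholino, an uncharged antisense oligonucleotide, paired with a DNA leash and delivered in a lipid complex at 50 nM, and all were lysed after 48 h, so the control carries the delivery as well. The series asks how the transcriptome differs once the long NEAT1 transcript and paraspeckles have been raised. The BPS2 columns were matched to their samples by title, because another name, KPAS, stands in the description of these samples, and 1 BPS1 column is spelled BSP1. One cell line was used. Nothing in the labels ties a group's 4 libraries to independent cultures, so the p-values here reflect library-to-library spread that could be technical.

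NRF2, the product of NFE2L2, is the transcription factor that drives the cell's answer to oxidants and electrophiles. The adaptor KEAP1 normally hands it to a ubiquitin ligase for destruction. When KEAP1 is modified, NRF2 builds up, pairs with a small MAF protein and binds antioxidant response elements in front of its target genes, so its activity is set largely at the protein level. GCLC and GCLM encode the catalytic and modifier subunits of glutamate-cysteine ligase, the rate-limiting enzyme of glutathione synthesis. HMOX1 encodes haem oxygenase 1, which breaks down haem, and NQO1 a quinone reductase. TXNRD1 encodes cytosolic thioredoxin reductase, and SRXN1 encodes sulfiredoxin, which restores overoxidized peroxiredoxins. GPX1, GPX3 and GPX4 encode glutathione peroxidases that act on hydrogen peroxide in the cell, on peroxides outside it and on lipid peroxides in membranes. In neuroblastoma, as in other tumours, GPX4 and the cystine importer SLC7A11 are known for holding back ferroptosis, a form of cell death by lipid peroxidation.

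The promoter windows of 4 members are shown because GCLM, NQO1 and GPX3 were the members that separated the groups most clearly and TXNRD1 holds a like motif without a call. The sequences are RefSeq's on GRCh38.p14, from 250 bases before to 50 after an annotated start, 5′ to 3′ along the gene's strand. Capitals mark matches to TGACNNNGC, the core of the antioxidant response element, on either strand.
GCLM (chr1:93909381-93909680, minus strand): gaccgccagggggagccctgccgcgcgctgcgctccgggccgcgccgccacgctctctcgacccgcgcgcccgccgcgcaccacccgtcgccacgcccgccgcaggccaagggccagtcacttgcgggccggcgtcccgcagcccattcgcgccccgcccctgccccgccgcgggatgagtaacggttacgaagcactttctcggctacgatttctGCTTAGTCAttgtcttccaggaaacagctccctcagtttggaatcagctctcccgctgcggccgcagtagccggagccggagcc
NQO1 (chr16:69726511-69726810, minus strand): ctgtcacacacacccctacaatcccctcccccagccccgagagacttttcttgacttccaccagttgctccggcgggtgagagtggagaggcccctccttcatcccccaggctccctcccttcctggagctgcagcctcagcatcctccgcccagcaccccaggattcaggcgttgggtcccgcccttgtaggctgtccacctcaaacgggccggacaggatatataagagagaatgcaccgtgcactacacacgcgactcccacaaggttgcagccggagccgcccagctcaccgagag
GPX3 (chr5:151020341-151020640, plus strand): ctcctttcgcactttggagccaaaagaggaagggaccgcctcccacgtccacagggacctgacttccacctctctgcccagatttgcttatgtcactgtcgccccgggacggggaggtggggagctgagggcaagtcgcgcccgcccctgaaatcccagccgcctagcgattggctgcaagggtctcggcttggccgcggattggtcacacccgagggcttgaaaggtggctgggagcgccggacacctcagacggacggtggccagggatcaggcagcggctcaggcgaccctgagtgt
TXNRD1 (chr12:104286782-104287081, plus strand): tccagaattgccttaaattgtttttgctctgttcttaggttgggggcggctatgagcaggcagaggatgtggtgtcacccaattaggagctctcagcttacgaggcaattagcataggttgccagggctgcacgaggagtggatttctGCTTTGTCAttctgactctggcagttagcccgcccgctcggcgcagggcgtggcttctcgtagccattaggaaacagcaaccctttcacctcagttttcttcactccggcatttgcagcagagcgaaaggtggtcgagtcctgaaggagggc
The GCLM match lies 34 to 26 bases upstream of the start and the TXNRD1 match 102 to 94 bases upstream, both on the opposite strand. The other TXNRD1 window in the table held the core on each strand. HMOX1 had no entry there. Of the 9 members with an entry, only GCLM and TXNRD1 held the core, in 3 of 13 windows, against 13.3% of all 35116 windows. The AP-1 motif TGACTCA, whose first letters the core shares, was in 0 of the 13 windows and in 4.95% of all. No match says only that these letters are not in this window.

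Before any comparison, 2 libraries stood apart over all genes tested. Taking each gene's distance from its median, the SD within a library was 0.594 in BPS1 replicate 4 and 0.471 in control replicate 1, against 0.377 to 0.425 in the other 10. The same 2 libraries had the highest rank correlation of that deviation with transcript GC content (Spearman's rho of 0.370 and 0.251). It was taken across protein-coding genes and is given as a description, since genes are no independent replicates. In the other 10 libraries rho ran from −0.232 in control replicate 3 to 0.218 in BPS2 replicate 3, so control replicate 1 was only slightly higher. Estimated depth, a library's total over what 1 read was worth, lay between 29.1 M and 31.8 M reads. The 10 adrenergic neuroblastoma markers, such as DBH, were all at a mean of at least 10 in every group, with a summed count of 228823 to 244379 in BPS2, 195593 to 252873 in BPS1 and 253760 to 304776 in control libraries. The 10 markers of mesenchymal, Schwann and blood cells summed to 1246 to 1517 in BPS2, 1097 to 1426 in BPS1 and 948 to 1227 in control, with 6 of them at a mean of at least 10 in each group; HBB was at 0 in all 4 BPS2 libraries. At the same threshold as below, 1 adrenergic marker was called lower in BPS2, 5 lower and 1 higher in BPS1, and 1 of 7 tested markers of the other cells higher in BPS2. Of all genes tested, 0.386% were called lower and 0.821% higher in BPS2. In BPS1 these shares were 4.32% and 4.29%. Their part in the results was not tested. NEAT1 averaged 4262 ± 412 normalized counts in BPS2, 2024 ± 420 in BPS1 and 6879 ± 264 in control (SD, n = 4), so its row, which does not separate the long from the short transcript, was lower with both oligonucleotides (limma adjusted p = 0.0239 and 6.00e-06); the BPS2 call held in 5 of 12 omissions of a library and reached 0.0907 without BPS2 replicate 3.

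All 10 members were expressed and passed the filter of at least 10 normalized counts in at least 4 libraries. Per kilobase of annotated exon, the mean control level was highest for TXNRD1, at 1601 ± 180 (SD, n = 4), then GPX1 at 1247 ± 187 and GPX4 at 903 ± 154. SRXN1 stood at 558 ± 46.6, NQO1 at 310.5 ± 30.9 and NFE2L2 itself at 302.5 ± 16.4. GPX3 at 197 ± 13.0, GCLC at 183.6 ± 11.2, HMOX1 at 183.5 ± 26.0 and GCLM at 178 ± 14.9 formed the lower end. Neighbours within 1 SD of each other were NQO1 with NFE2L2, and GCLC, HMOX1 and GCLM among themselves. In BPS2 libraries the first 6 kept this order and the last 4 did not, with HMOX1 at 310.1 ± 36.6 per kilobase, GPX3 at 300.4 ± 23.6, GCLM at 269 ± 13.2 and GCLC at 222.1 ± 19.95. These are levels over all annotated exons of GENCODE release 29, and a gene whose cells use only some exons is understated.

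**Figure D1:**
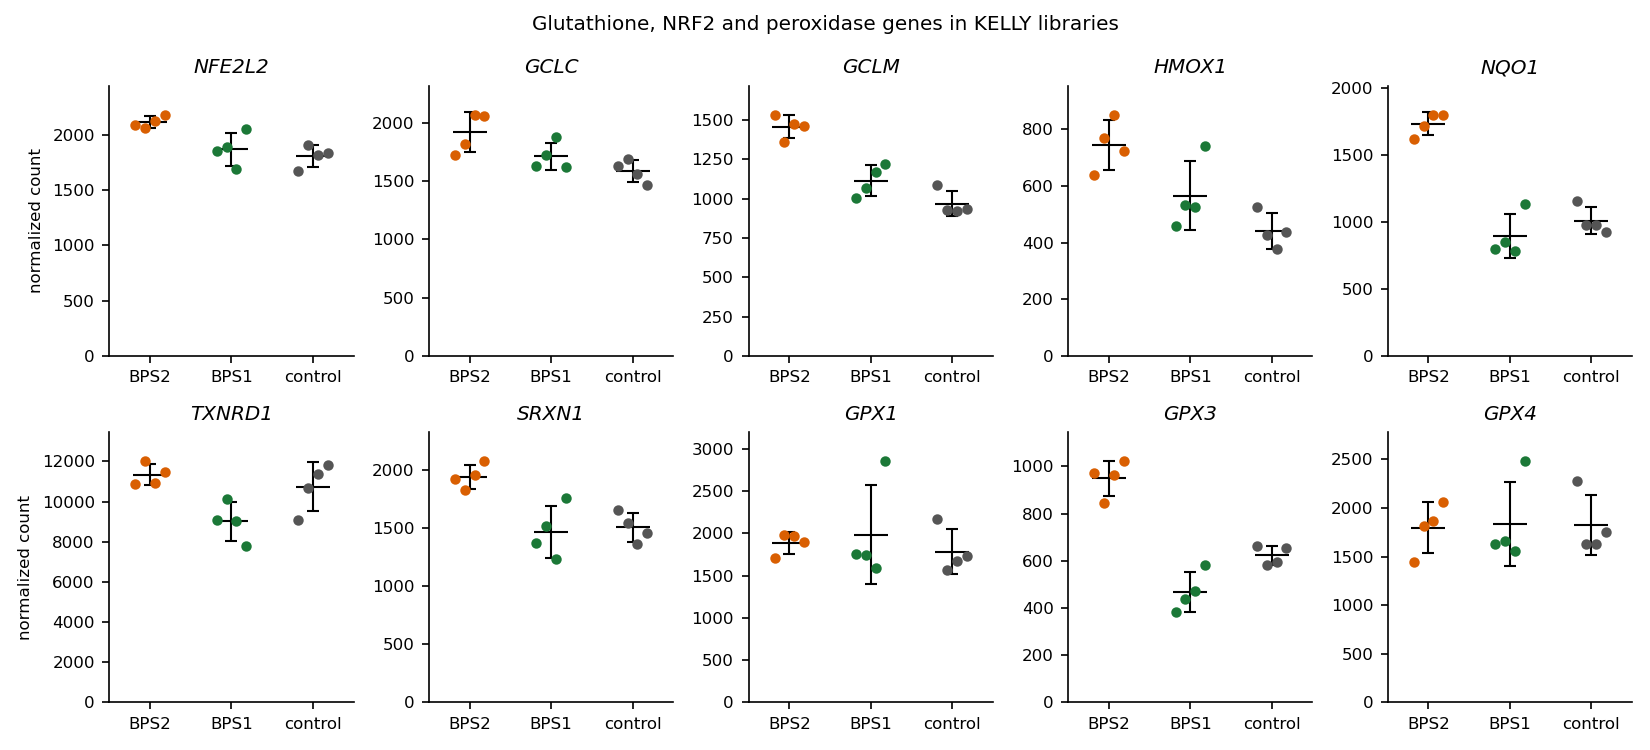
Normalized counts of the 10 members, 1 point per library, for BPS2, BPS1 and control (n = 4 each), with mean (line) and SD (bar); each panel has its own vertical axis from 0. NQO1, GCLM and GPX3 in BPS2 lie above every other library, and 1 BPS1 library stands high for GPX1 and GPX4.

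Several NRF2 target genes rose in BPS2, and the gene of NRF2 itself was not called with all libraries kept. NQO1 rose 1.72-fold, HMOX1 1.69-fold, GPX3 1.52-fold and GCLM 1.51-fold against control. Of the 10 members 4 were called higher and 0 lower, where 1.21% of the 20454 genes tested were called, 0.821% higher and 0.386% lower (two-sided limma test, p adjusted by Benjamini-Hochberg across the whole table, threshold 0.05). The median log2 fold change of the 10 was 0.32, beside 0.00 over all genes tested. The 2 groups did not overlap for 7 members, all higher in BPS2, where 5.41% of the genes tested lay wholly higher and 4.23% wholly lower. At an unadjusted p under 0.05, 7 members were higher and 0 lower in the same limma fit. No share of all genes tested was taken at that threshold, so this count has no background. In bulk RNA, a change in the share of cells that express a gene and a change in RNA per cell cannot be told apart.

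NFE2L2 (ENSG00000116044, chromosome 2, 177227595 to 177392697, minus strand of GRCh38) had 2084, 2059, 2127 and 2179 normalized counts in BPS2 libraries, against 1673, 1906, 1816 and 1838 in control. Every BPS2 library lay above every control library, but the difference was small. Its log2 fold change of 0.23 ± 0.07 (SE) was not called (limma adjusted p = 0.207), with a 95% interval of 0.07 to 0.38. It was called without control replicate 1 and BPS1 replicate 4 (0.19, adjusted p = 0.0462).

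The 2 subunits of glutamate-cysteine ligase differed in size of change. GCLM (ENSG00000023909, chromosome 1, 93885205 to 93909456, minus strand) held 1531, 1359, 1474 and 1459 in BPS2 libraries, against 1088, 928, 918.5 and 934 in control. The groups did not overlap, and the log2 fold change was 0.59 ± 0.09 (adjusted p = 0.00396). GCLC (ENSG00000001084, chromosome 6, 53497341 to 53616970, minus strand) held 1727, 1823, 2070 and 2061 in BPS2 libraries, against 1629, 1690, 1564 and 1465 in control. The lowest BPS2 library was just above the highest control library, and the log2 fold change of 0.27 ± 0.08 was not called (adjusted p = 0.180). It was called with library weights (0.28, adjusted p = 0.0423) and without both outlying libraries (0.29, 0.0489). Whether the 2 subunits differ in response was not tested.

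The haem and quinone enzymes gave the 2 largest values. NQO1 (ENSG00000181019, chromosome 16, 69706996 to 69726951, minus strand) held 1623, 1721, 1799 and 1802 in BPS2 libraries, against 1156, 976, 982 and 927 in control. The lowest BPS2 library was well above control replicate 1, the highest of its group, and the log2 fold change was 0.78 ± 0.11 (adjusted p = 0.00440). HMOX1 (ENSG00000100292, chromosome 22, 35380361 to 35394214, plus strand) held 639.7, 769, 851 and 724 in BPS2 libraries, against 526, 426, 376 and 437 in control. It did not overlap between the groups, and its log2 fold change was 0.76 ± 0.15 (adjusted p = 0.0258). The HMOX1 call was lost without any one of control replicates 2, 3 and 4 or BPS2 replicates 2, 3 and 4 (adjusted p of 0.0708 to 0.103).

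The thiol reductases were not called in BPS2. SRXN1 (ENSG00000271303, chromosome 20, 646615 to 653370, minus strand) held 1916, 1822, 1951 and 2071 in BPS2 libraries, against 1657, 1545, 1362 and 1457 in control. The groups did not overlap, and the log2 fold change of 0.37 ± 0.10 was not called (adjusted p = 0.140). The adjusted p was 0.0308 without BPS1 replicate 4, which shares the estimate of spread, and 0.00901 without control replicate 1 and BPS1 replicate 4. With library weights it was 0.0114, and with only the 2 groups compared 0.0443. SRXN1 was the only member that came out in whole reads throughout, in 12 of 12 libraries (within 0.02 of a read), with 1934 reads in BPS2 replicate 1 and an exact 95% Poisson interval of 1849 to 2022, which covers counting error only. TXNRD1 (ENSG00000198431, chromosome 12, 104215779 to 104350305, plus strand) held 10889, 11995, 10936 and 11478 in BPS2 libraries, against 9077, 10677, 11374 and 11839 in control, with overlapping groups and a log2 fold change of 0.08 ± 0.09 (adjusted p = 0.810; 95% interval −0.12 to 0.28).

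Among the peroxidases GPX3 rose and the other 2 were not called. GPX3 (ENSG00000211445, chromosome 5, 151020438 to 151028993, plus strand) held 971, 845, 964 and 1021 in BPS2 libraries, against 663, 582, 595 and 655 in control, without overlap. Its log2 fold change was 0.61 ± 0.12 (adjusted p = 0.0252), and the call was lost without any one of control replicates 2, 3 and 4 or BPS2 replicates 1, 3 and 4 (0.0540 to 0.0942). GPX1 (ENSG00000233276, chromosome 3, 49357171 to 49358600, minus strand) held 1706, 1976, 1968 and 1894 in BPS2 libraries, against 2170, 1564, 1668 and 1729 in control. GPX4 (ENSG00000167468, chromosome 19, 1103926 to 1106791, plus strand) held 1443, 1814, 1869 and 2067 in BPS2 libraries, against 2281, 1629, 1630 and 1756 in control. Both overlapped between the groups, with log2 fold changes of 0.09 ± 0.16 (adjusted p = 0.887; 95% interval −0.26 to 0.44) and −0.02 ± 0.16 (adjusted p = 0.982; −0.37 to 0.33), and the intervals show how large a change in either direction these libraries could have missed.

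In BPS1, GPX3 fell 1.35-fold and no other member was called, a share near that of all genes tested. Of the 10 members 1 was called lower and 0 higher, where 8.60% of the genes tested were called, 4.32% lower and 4.29% higher. At an unadjusted p under 0.05 in the same limma fit, 2 were lower (GPX3 and TXNRD1) and 2 higher (GCLM and HMOX1). That count again has no share of all genes beside it. The median log2 fold change of the members was 0.02, with 5 above and 5 below 0. GPX3 held 381.5, 437, 470.3 and 580.3 in BPS1 libraries, against 663, 582, 595 and 655 in control. The highest BPS1 library, replicate 4, fell just short of the lowest control library, and the log2 fold change was −0.43 ± 0.12 (adjusted p = 0.0388). It was the only member whose groups did not overlap, where 6.81% of the genes tested lay wholly lower in BPS1 and 7.50% wholly higher. The GPX3 call was held only when BPS1 replicate 4 or BPS2 replicate 2 was the library left out. It was lost in each of the other 10 omissions (0.0527 to 0.0983).

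NQO1, TXNRD1 and SRXN1 were not called in BPS1, and for NQO1 and TXNRD1 this depended on the libraries kept and on the fit. NQO1 held 801, 855, 785 and 1138 in BPS1 libraries, against 1156, 976, 982 and 927 in control, so 3 of the 4 BPS1 libraries lay below every control library and replicate 4 lay near the top of control. The log2 fold change of −0.19 ± 0.11 was not called (adjusted p = 0.374), but it was −0.31 and called without BPS1 replicate 4 (0.0303), −0.24 without both that library and control replicate 1 (0.0279) and −0.26 with library weights (0.0253). TXNRD1 held 9078, 10138, 9024 and 7782 in BPS1 libraries, against 9077, 10677, 11374 and 11839 in control. Its log2 fold change of −0.25 ± 0.09 (adjusted p = 0.118) passed without control replicate 1 (−0.33, 0.0309) and without both libraries (−0.26, 0.0116). With all 12 libraries kept it also passed with library weights (−0.24, 0.0231) and with the GC trend removed (−0.25, 0.0479). SRXN1 held 1371, 1515, 1231 and 1754 in BPS1 libraries, around the 1362 to 1657 of control (−0.05 ± 0.10, adjusted p = 0.848).

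NFE2L2 and the genes of glutathione synthesis were not called in BPS1. NFE2L2 held 1849, 1893, 1688 and 2051 in BPS1 libraries, against 1673 to 1906 in control (log2 fold change 0.05 ± 0.07, adjusted p = 0.764). GCLM held 1002, 1066, 1167 and 1220 in BPS1 libraries, against 918.5 to 1088 in control, and GCLC held 1632, 1726, 1877 and 1621 in BPS1 libraries, against 1465 to 1690. The fitted change was 0.20 ± 0.09 for GCLM (adjusted p = 0.174). For GCLC it was 0.11 ± 0.08 (adjusted p = 0.480). HMOX1 held 459.6, 533, 527 and 742 in BPS1 libraries, against 376 to 526 in control. Only replicate 4 was far above the control range, and the log2 fold change was 0.34 ± 0.15 (adjusted p = 0.188).

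GPX1 and GPX4 varied most within BPS1, through the same library. GPX1 held 1752, 1744, 1596 and 2851 in BPS1 libraries, against 2170, 1564, 1668 and 1729 in control. GPX4 held 1631, 1664, 1561 and 2480 in BPS1 libraries, against 2281, 1629, 1630 and 1756 in control. For both genes the highest library was replicate 4 in BPS1 and replicate 1 in control, the 2 libraries with the highest rho with GC content. Whether GC content bears on these values was not tested. Transcripts of GPX1 and GPX4 had a GC content of 63.1% and 63.4%, above 93.5% and 94.0% of the tested protein-coding genes. Neither was called in BPS1 (log2 fold changes of 0.13 ± 0.16 and 0.00 ± 0.16, adjusted p = 0.704 and 0.991). Across the 10 members, BPS1 replicate 4 was the highest of its group for 8, where it was so for 40.4% of all genes tested, and control replicate 1 was the highest of its group for 7, where it was so for 34.97%. Those 8 members ranged in GC content from above 12.4% (GCLM) and 26.5% (NFE2L2) to above 94.0% (GPX4) of the tested protein-coding genes. GCLC and TXNRD1, lowest of their group in BPS1 replicate 4, stood above 28.8% and 34.2%. For GPX1 in BPS1 the log2 fold change was 0.0379 with the GC trend of each library removed, 0.0369 with library weights and 0.0371 without both libraries. For GPX4 in BPS1 it was −0.0966, −0.0522 and −0.0459 under the same settings, and neither gene was called under any of them.

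**Figure D2:**
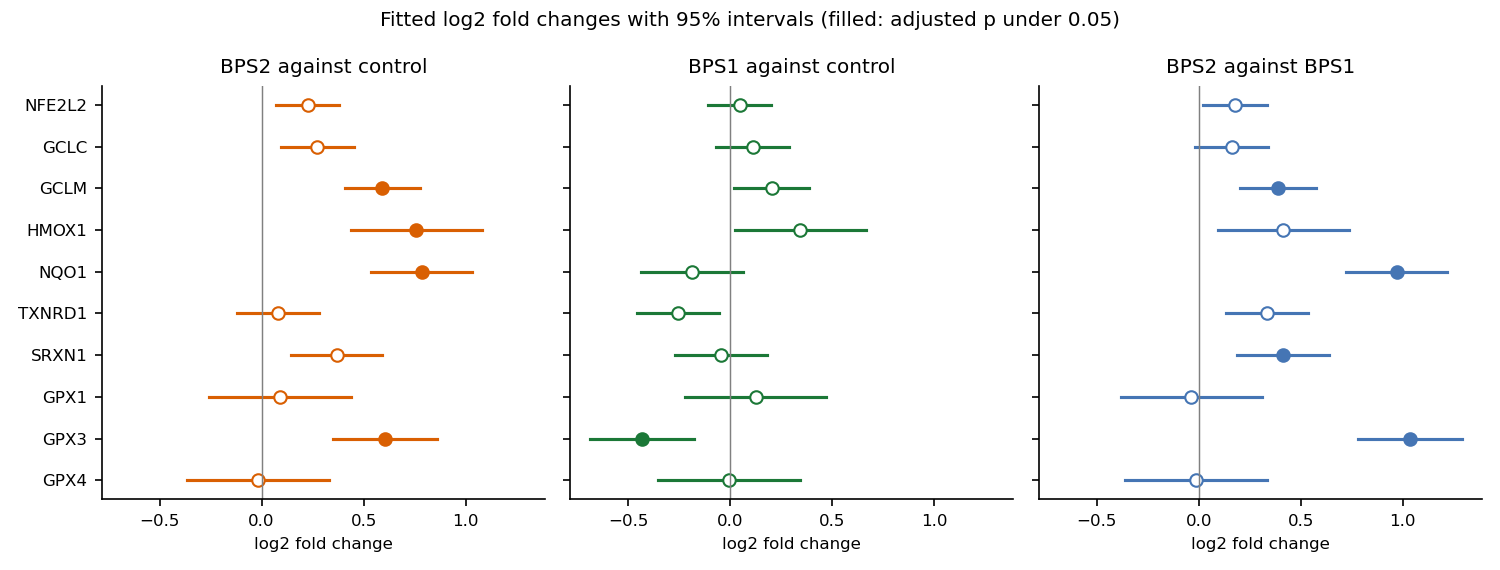
Fitted log2 fold changes (points) with 95% intervals (lines) of the 10 members in BPS2 against control, BPS1 against control and BPS2 against BPS1, on log2(normalized count + 1); filled points passed an adjusted p of 0.05. GPX3 is below 0 in BPS1 and above 0 in BPS2, and NQO1 and GPX3 have the largest values of BPS2 against BPS1, at 0.97 and 1.04.

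Among the 10 members, GPX3 and NQO1 differed most between the 2 oligonucleotides. GPX3 was 2.05-fold and NQO1 1.96-fold higher in BPS2 than in BPS1, with log2 differences of 1.04 ± 0.12 (adjusted p = 3.24e-04) and 0.97 ± 0.11 (adjusted p = 4.25e-04). The lowest BPS2 library of GPX3, at 845, stood far above the highest BPS1 library, at 580.3, and that of NQO1, at 1623, above 1138. SRXN1 was higher by 0.41 ± 0.10 (adjusted p = 0.0432) and GCLM by 0.39 ± 0.09 (adjusted p = 0.0216). In all, 4 of the 10 members were called higher in BPS2 than in BPS1 and 0 lower, where 3.93% of the genes tested were called, 2.30% higher and 1.63% lower. At an unadjusted p under 0.05, 7 were higher and 0 lower in the same limma fit, with no share of all genes taken at that threshold. Groups did not overlap for 6 members, all higher in BPS2, where 6.08% of the genes tested lay wholly higher and 5.80% wholly lower. The comparison shares its BPS2 and BPS1 libraries with the comparisons with control, and those 2 share their control libraries.

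The NQO1 and GPX3 differences were called in each of 12 omissions of 1 library and in each other alternative tried (adjusted p of 4.70e-07 to 0.00557 and 4.71e-06 to 0.00327). The GCLM difference was lost without any one of BPS1 replicates 1 and 2 or BPS2 replicates 1, 3 and 4 (0.0638 to 0.0699), and with the GC trend removed (0.0831). Among single omissions, that of SRXN1 was kept only without control replicate 1 or BPS1 replicate 4 (0.0520 to 0.129 in the other 10 omissions). The SRXN1 call was also lost with no filter (0.0718), with only the 2 groups compared (0.0804) and with the replicate block (0.0778). HMOX1 was higher in BPS2 than in BPS1 by 0.41 ± 0.15 (adjusted p = 0.161) and TXNRD1 by 0.34 ± 0.09 (adjusted p = 0.0664). HMOX1 passed without BPS1 replicate 4 (0.55, 0.0171), and TXNRD1 without control replicate 1 (0.0287) and with the GC trend removed (0.35, 0.0147). Library weights and the omission of both outlying libraries also gave calls for HMOX1 (0.00298 and 0.00428) and TXNRD1 (0.00727 and 0.00677). NFE2L2 differed by 0.18 ± 0.07 (adjusted p = 0.221), with calls under library weights (0.23, 0.0123) and without both libraries (0.22, 0.0140). GCLC differed by 0.16 ± 0.08 (0.349). GPX1 and GPX4 differed by −0.04 ± 0.16 and −0.01 ± 0.16 (0.951 and 0.982), with 95% intervals of −0.38 to 0.31 and −0.36 to 0.33.

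**Figure D3:**
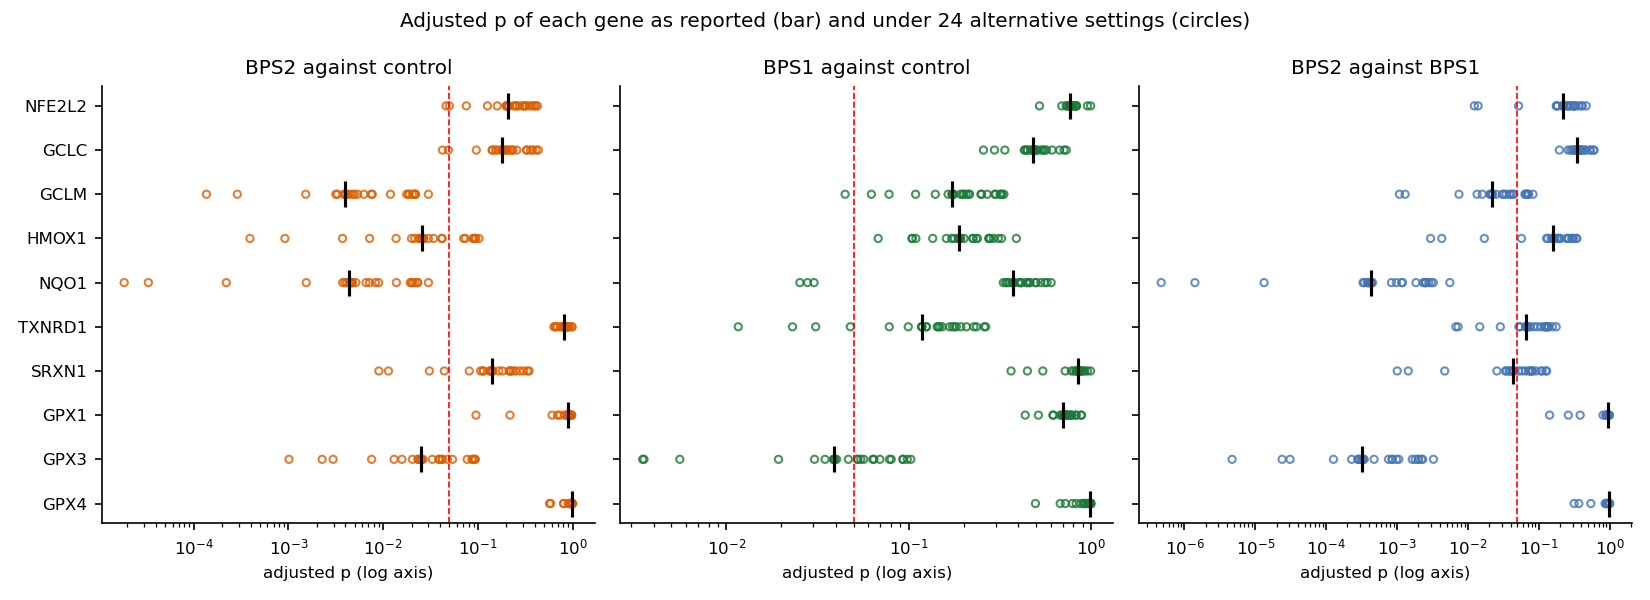
Adjusted p (log axis) of each member in the 3 comparisons, as reported (bar) and under 24 alternative settings (circles); the dashed line is 0.05. In BPS2 against control all circles of NQO1 and GCLM lie left of the line, while HMOX1 and GPX3 straddle it.

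The rest of the pathway was read from 8 lists holding 148 tested genes, each read from a single row of its symbol. In BPS2, 4 of them were called higher and 1 lower, 2.70% and 0.676%, beside 0.821% and 0.386% of all genes tested. MAFF, a small MAF protein that can pair with NRF2, averaged 352.5 ± 13.8 in BPS2 and 194 ± 19.1 in control (log2 fold change 0.86 ± 0.15, adjusted p = 0.0116). SQSTM1, the autophagy receptor p62, which binds KEAP1 and is itself an NRF2 target, averaged 4341 ± 274 in BPS2 and 2722 ± 113 in control (0.67 ± 0.11, adjusted p = 0.00748). TXNIP, an inhibitor of thioredoxin, fell to 3261 ± 109 in BPS2, against 4206 ± 104 in control (−0.37 ± 0.06, adjusted p = 0.00540). These 3 calls held in all 12 omissions of a library. The other 2, CHAC1, which degrades glutathione (0.78, adjusted p = 0.0438), and the NADPH-producing malic enzyme ME1 (0.36, 0.0241), did not: CHAC1 was called in 2 of 12 omissions (up to 0.149 without BPS2 replicate 3) and ME1 in 5 (up to 0.0928 without the same library).

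KEAP1 and the small MAF gene MAFG were not called. MAFG averaged 2041 ± 69.5 in BPS2, 1948 ± 60.5 in BPS1 and 1722 ± 52.4 in control, with log2 fold changes of 0.25 ± 0.06 in BPS2 (adjusted p = 0.0742) and 0.18 ± 0.06 in BPS1 (0.0872). KEAP1 averaged 3512 ± 246 in BPS2, 3499 ± 840 in BPS1 and 3114 ± 490 in control, with log2 fold changes of 0.18 in BPS2 (adjusted p = 0.701) and 0.15 in BPS1 (0.585). BACH1, a repressor that competes with NRF2, averaged 1348 ± 205 in BPS2, 1092 ± 377 in BPS1 and 1681 ± 510 in control (−0.28 and −0.64, adjusted p = 0.743 and 0.140). Among the other NRF2 targets, 1 of 27 was called higher in BPS2 and 0 lower, with a list median of 0.11. At an unadjusted p under 0.05 the same limma fit gave 9 higher and 2 lower, with no share of all genes taken at that threshold. NQO2, a quinone reductase related to NQO1, was the nearest to a call among those not called (0.50 ± 0.11, adjusted p = 0.0529). The ferritin chains FTH1 (0.35, adjusted p = 0.409) and FTL (0.33, 0.465) were not called. Of 13 other peroxidase and superoxide genes tested, among them PRDX1 (0.21, 0.640), limma called 0 in any comparison, and at an unadjusted p under 0.05 it gave 0 in BPS2 against control, 1 higher in BPS1 against control, and 1 higher and 1 lower in BPS2 against BPS1. In BPS2 limma called 0 of 17 selenoprotein genes, 0 of 17 ferroptosis and iron genes and 0 of 19 glutathione transferase genes. At an unadjusted p under 0.05 the same fit gave 3, 3 and 1. Over all genes tested 1.21% were called in BPS2, so 0 in lists this small, the peroxidase list included, is near that share. The unadjusted counts of these lists have no such share beside them.

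In BPS1, 7 of the 148 genes were called higher and 11 lower, 4.73% and 7.43%, beside 4.29% and 4.32% of all genes tested. SLC7A11, the importer of the cystine from which glutathione is made, fell to 368 ± 91.8 in BPS1, against 700.0 ± 133 in control (log2 fold change −0.94 ± 0.19, adjusted p = 0.00761). In BPS2 it averaged 804 ± 25.8 (0.22 ± 0.19 against control, adjusted p = 0.729), 1.16 above BPS1 on the log2 scale (0.00338). IDH1, a cytosolic NADPH source, fell to 1570 ± 108 in BPS1, against 3610 ± 188 in control (−1.20 ± 0.07, adjusted p = 4.72e-07), and was 3582 ± 27.4 in BPS2. LPCAT3, which loads polyunsaturated fatty acids into membrane lipids, fell by 0.55 on the log2 scale (adjusted p = 0.00315), and GSTM2 by 0.50 (0.00184). TXNIP fell in BPS1 as well, to 3359 ± 96.3 (−0.32, 0.00293).

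Genes that rose in BPS1 included MAFF, at 333 ± 83.6 (log2 fold change 0.75 ± 0.15, adjusted p = 0.00701), ME1 (0.33, 0.00941), the aldo-keto reductase AKR1C3 (0.97, 0.00737) and HPGDS, a prostaglandin D synthase of the transferase family, at 30.1 ± 11.2 in BPS1, against 11.2 ± 1.45 in control. GSTM2 and AKR1C3 have close paralogs, so reads may be divided uncertainly among the copies. The calls of SLC7A11, IDH1, LPCAT3, GSTM2, TXNIP, MAFF, ME1, AKR1C3 and HPGDS held in all 12 omissions. The other 9 BPS1 calls, of GSTM1, GLRX2, SESN1, SESN2, SESN3, AKR1B1, AKR1C2, FECH and SCLY, were each lost in at least 3 of 12 omissions, with adjusted p up to 0.0581 for SESN3 and 0.114 for GLRX2, both without control replicate 4.

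Between BPS2 and BPS1, 9 of the 148 were called higher in BPS2 and 3 lower, 6.08% and 2.03%, beside 2.30% and 1.63% of all genes tested. SLC7A11, IDH1 (1.19, adjusted p = 6.27e-07), LPCAT3 (0.59, 0.00321) and the stress-induced sestrin SESN2 (0.63, 0.00148) were higher in BPS2 in all 12 omissions. SQSTM1 (0.45, 0.0309) and OSGIN1, an oxidative stress-induced growth inhibitor (0.88, 0.0205), were called higher as well, in 6 and 7 of the 12 omissions (up to 0.0949 and 0.0713, both without BPS2 replicate 3). FDFT1 of sterol synthesis (0.47, 0.0148), the exporter gene ABCC4 (1.21, 0.0448) and GSTM2 (0.32, 0.0349) made up the rest of the higher calls. CBS, of cysteine synthesis (−0.24, 0.0445), HPGDS (−1.12, 0.0282) and SCLY, of selenium recycling (−0.37, 0.0378), were lower in BPS2. These 6 calls were each lost in at least 2 of 12 omissions, with adjusted p up to 0.137 for ABCC4 and 0.125 for CBS, both without BPS2 replicate 2.

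**Figure D4:**
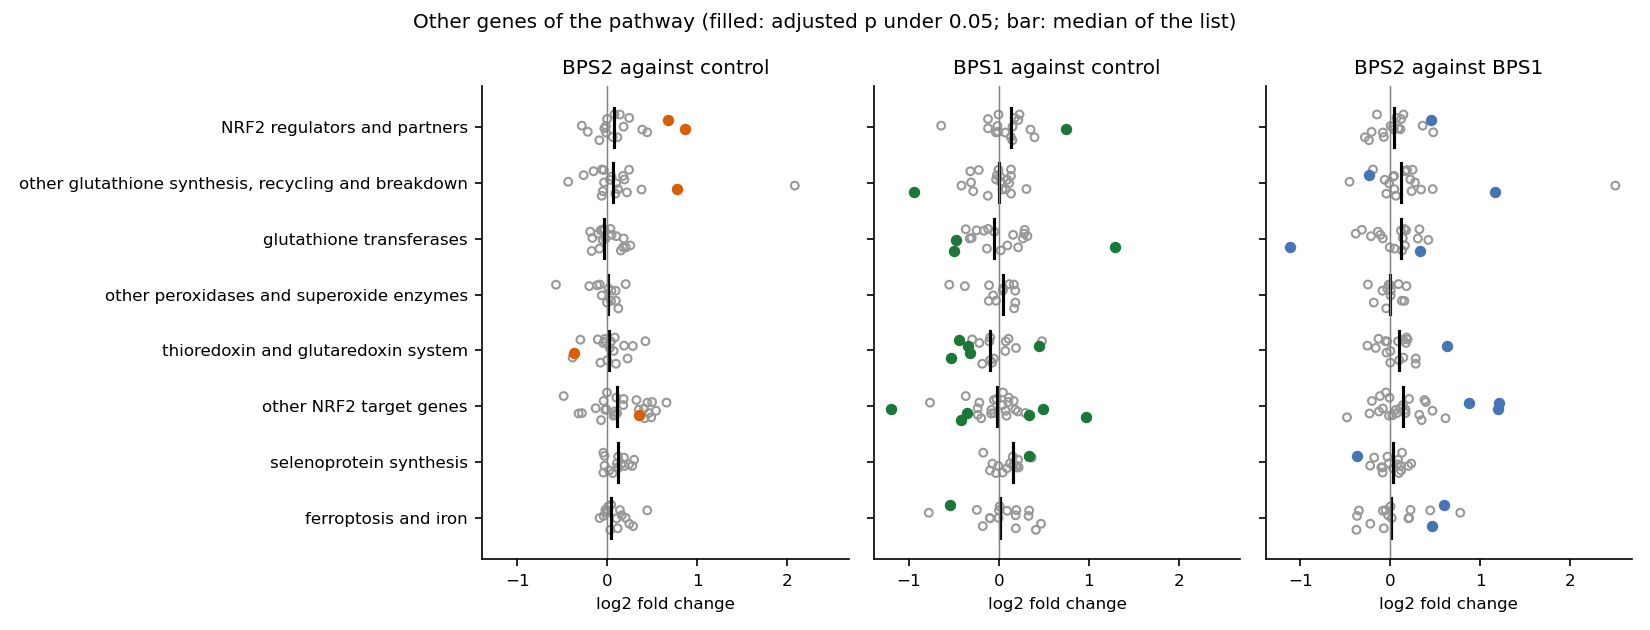
Log2 fold changes of the 148 tested genes in 8 pathway lists, 1 point per gene, in BPS2 against control, BPS1 against control and BPS2 against BPS1; filled points passed an adjusted p of 0.05 and black bars are list medians. Called genes sit mostly right of 0 in the panels of BPS2 against control and BPS2 against BPS1 (4 of 5 and 9 of 12) and on both sides in that of BPS1 against control (7 higher, 11 lower).

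The genes most like the called members were taken by Pearson's r of log2 values over the 12 libraries, which fall into 3 groups, so r mainly follows the group differences. For GPX3 they included ZBED6CL (0.97) and SQLE (0.95), which encodes an enzyme of cholesterol synthesis. For NQO1 they were NSG2 (0.97), the sterol sensor gene INSIG1 (0.97) and the chemokine gene CCL2 (0.96). For HMOX1 they were PPP1R15A (0.97), a stress-induced regulator of translation, the endoplasmic reticulum chaperone gene HSPA5 (0.96) and NME6 (0.96). For GCLM they were a row of the cytokine gene TNF (ENSG00000230108, 0.95), the amino acid transporter gene SLC6A19 (0.94) and AHNAK (0.94). The TNF value is of that row only and says nothing of any other row under the symbol.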

How the data were processed

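Per the submitters' processing notes, FastQC 0.11.7, Salmon 0.8.2 and DESeq2 were used with GRCh38. The DESeq2 version, the annotation release and how transcripts were summed to genes were not stated there. The deposited file gives a signal for every gene in each of the 12 libraries, namely a normalized count. The worth of 1 read was estimated from the spacing of low values. Since 9 of the 10 members were not in whole reads, no count test was run.

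A gene was tested if at least 4 libraries reached 10, which left 20454. The test was limma 3.58.1 in R 4.3.3 on log2(value + 1), with the 3 groups in 1 model and a trended eBayes variance. Fold changes on this scale understate those of low genes. The script was first tested on simulated data. Errors are SD over 4 libraries, or SE for fold changes. Positions, exon lengths and GC content are from GENCODE release 29 on GRCh38, which may not be the authors' release.

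The members, lists and alternatives were chosen with earlier results of these data known. By rule the text names all members, up to 4 called genes of each list in each comparison, the 3 genes most similar to each member called against control, and NEAT1. Some results are not reported here. Named beyond that rule, after their values were seen, were the remaining called list genes, the uncalled regulators, ferritins, NQO2 and PRDX1 given as examples, HBB, and the low genes of the closing section. Alternatives were pseudocounts of 0.5 and 5, no filter, a minimum of 50, 2 other scalings, robust variances, library weights, a replicate block, fits of only the groups compared, and omissions of libraries. Removal of a GC trend from each library was added after seeing the data.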

Additional observations from a re-analysis of the deposited data

Results flagged for a closer look

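Within groups of 4, 3 of 30 sets of values had 1 library far from the rest, where chance gives about 1 in 20 for independent sets. The sets here share their libraries, so they are not independent and that rate is no measure of an excess. GPX1 was 2851 in BPS1 replicate 4, with the next library at 1752, and GPX4 was 2480 in the same library, with the next at 1664. GCLM was 1088 in control replicate 1, with the next control library at 934.

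For 4 genes the effect of BPS2 differed from that of BPS1 by the direct test. The differences on the log2 scale were 1.04 for GPX3, 0.97 for NQO1, 0.41 for SRXN1 and 0.39 for GCLM. GPX3 was the only one called in opposite directions against control, higher in BPS2 and lower in BPS1. The direct SRXN1 call was kept in 2 of 12 omissions of a library and that of GCLM in 7.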

How the results depend on the processing

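The alternatives gave each of NQO1 and GCLM in BPS2 against control, and of NQO1 and GPX3 in BPS2 against BPS1, on the same side of the threshold in all 25 settings, the reported one included. Genes called over the whole table numbered 247 in BPS2 against control, 1760 in BPS1 against control and 803 in BPS2 against BPS1. With library weights these were 1296, 3382 and 3626, and with control replicate 1 and BPS1 replicate 4 both left out they were 1923, 2772 and 3498. With only the groups compared, BPS1 against control gave 927. Over single omissions the counts ranged from 113 to 535, from 1103 to 2359 and from 471 to 1756, highest in each without BPS1 replicate 4.

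Members called higher in BPS2 against control numbered 7 without both libraries and 2 to 5 over single omissions. In BPS2 against BPS1 they numbered 7 with library weights, 7 without both libraries and 2 to 5 over single omissions. In BPS1 against control, 1 member (GCLM) was called higher with library weights. Those called lower there numbered 3 with library weights, 3 without both libraries, 2 with the GC trend removed, 0 with no filter, 0 with only the groups compared, and 0 to 2 over single omissions. The cause was not tested.

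Correlations of same-numbered deviations ran from −0.272 to 0.103, which gave no sign of a pairing by replicate number. The labels do not state a pairing, and these correlations cannot exclude it. With the replicate block, genes called were 118, 1067 and 447, and members called were 0 lower in BPS1 and 2 higher in BPS2 against BPS1, NQO1 and GPX3. In BPS2 against control, HMOX1 had an adjusted p of 0.0932 and MAFF of 0.0559 under it.

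Signs changed only for uncalled values. NFE2L2 in BPS1 was −0.0293 with library weights and −0.0357 without both libraries. GPX4 in BPS2 was 0.104 and 0.0943 under these settings. In BPS2 against BPS1, GPX1 was 0.15 and 0.15, and GPX4 was 0.16, 0.14 and, with the GC trend removed, 0.0022. Over single omissions, values in BPS1 ran from −0.135 to 0.0354 for SRXN1, −0.0612 to 0.224 for GPX1 and −0.158 to 0.108 for GPX4. GPX4 in BPS2 ran from −0.0891 to 0.0943. In BPS2 against BPS1, GPX1 ran from −0.128 to 0.151 and GPX4 from −0.0847 to 0.140. No member fell under the filter, so the tests planned for such members were not run.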

Other observations

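Several genes of the wider family were low in these cells. GPX2, GPX5, GPX8 and the extracellular superoxide dismutase gene SOD3 averaged under 10 normalized counts in every group, as did the transferase genes GSTA1 and GSTA2.

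GSS, which encodes the second enzyme of glutathione synthesis, was listed at 9.91 to 38.8 in BPS2, 0 to 15.1 in BPS1 and 0 to 43.3 in control libraries, while GCLC and GCLM were at 918.5 or more in every library. A listed 0 in a table without read counts can be a failed estimate, so no level of GSS is read from this row.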
